A study of Mus musculus with 16 samples.

Results

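Peroxisomes are the organelles in which the liver shortens very-long-chain and branched fatty acids, finishes the side chain of bile acids and breaks down hydrogen peroxide and glyoxylate. The 34 genes described here encode proteins that build the peroxisome or work inside it. They were listed by name from the known roles of their products, but earlier results of these data were known when the list was made. Of these, 13 are peroxins, the proteins that assemble and divide the organelle, and 21 encode enzymes, transporters and channels, called metabolic members below. Together they had 56 of the 25697 probes and 34 of the 16590 named genes on the array, and 32 of them had a probe bright enough to be tested.

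Bead arrays were used to compare the livers of 2 inbred mouse strains, A/J and C57BL/6J, with 8 samples of each and males only. All mice were fed a high-fat, high-caloric (HFHC) diet, so no sample shows the genes on another diet. The age label reads 8 weeks, while the methods put young adult mice on the diet for 8 wk. Mice fed in this way were older than 8 weeks at collection. Whether the label gives the age at the start of feeding or the time on the diet is not stated. By the methods the mice had a short fast before the livers were taken, and RNA was pooled from pairs of mice. Whether the samples of a strain are separate pools is not stated, and *P* values therefore cover only the spread between these samples.

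Peroxins fall into steps of one route. PEX3, PEX16 and PEX19 place membrane proteins, PEX5 and PEX7 carry enzymes from the cytosol to the docking proteins PEX13 and PEX14, the ubiquitin ligase that includes PEX2 and PEX10 and the ATPase PEX6 with its anchor PEX26 return the carriers, and PEX11 proteins elongate the membrane before division. In mouse liver the nuclear receptor PPARα induces several genes of the organelle, among them *Pex11a*, *Ehhadh*, *Acaa1b* and *Acot4*.

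Each signal below was read by a probe of 50 bases, and the results turn on the probes of 5 genes. Their sequences are shown 5′ to 3′ as the array design gives them, because the probes of *Pex19*, *Pex11a* and *Scp2* read separate stretches of 1 gene and because *Cat* and *Agxt* had 1 probe each. Capitals mark the 44 bases that 2 *Scp2* probes share.
*Pex19*, brighter probe: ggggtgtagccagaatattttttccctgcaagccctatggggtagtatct
*Pex19*, dimmer probe: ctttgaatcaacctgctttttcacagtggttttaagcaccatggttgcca
*Pex11a*, brightest probe: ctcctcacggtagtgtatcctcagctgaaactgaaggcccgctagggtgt
*Pex11a*, next probe: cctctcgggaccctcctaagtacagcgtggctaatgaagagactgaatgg
*Pex11a*, dimmest probe: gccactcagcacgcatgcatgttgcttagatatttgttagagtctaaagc
*Cat*: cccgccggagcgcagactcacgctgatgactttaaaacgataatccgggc
*Agxt*: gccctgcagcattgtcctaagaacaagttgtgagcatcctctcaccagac
*Scp2*, brightest probe: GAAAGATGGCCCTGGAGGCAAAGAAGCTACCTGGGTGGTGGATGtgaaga
*Scp2*, overlapping probe: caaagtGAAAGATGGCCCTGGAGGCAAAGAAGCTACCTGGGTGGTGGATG
*Scp2*, separate probe: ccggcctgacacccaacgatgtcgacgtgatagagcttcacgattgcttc
Apart from overlaps of 49 bases in *Decr2*, 35 bases in *Pex7* and 44 bases in *Scp2*, probes of 1 member shared runs of at most 9 bases. Between the close relatives *Acaa1a* and *Acaa1b* the longest shared run was 5 bases. Each sequence printed occurred once on the array. Where the probes lie within the transcripts, and whether a strain difference in sequence falls under one, was not determined here. With a single probe, such a variant and a change in RNA level cannot be told apart.

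Values are log2 signals, normalized by the authors so that every array had the same distribution, which reached from 7.61 to 14.97 with a median of 8.01. A gene was represented by its probe with the highest mean and was called differentially expressed when limma gave an adjusted *P* of at most 0.05 and the strains differed by 1.5-fold or more. Differences are A/J minus C57BL/6J.

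Of the 32 members tested, 4 were differentially expressed, against 5.29% of the 9051 genes tested. *Agxt* and *Cat*, enzymes that remove glyoxylate and hydrogen peroxide, were higher in A/J mice. *Pex19* and *Pex11a*, which act in membrane protein import and in division, were lower in A/J mice. The 4 differences lay between 1.54-fold and 1.62-fold, so they were close in size and near the fold threshold. By direction, 2 of 32 members were higher, against 2.13% of all genes, and 2 were lower, against 3.16%. Without the fold threshold, 12 members passed the adjusted *P* (7 higher and 5 lower in A/J), against 28.1% of all genes, and 20 did not pass. Counted by probe, 7 of the 53 tested probes of the members were called, against 4.86% of all kept probes. The signals of the strains did not overlap for 4 members (*Agxt*, *Cat*, *Pex19* and *Acaa1a*), against 9.19% of all genes. The median difference of the members was -0.01 on the log2 scale and that of all genes 0.01, while the median absolute difference was 0.16 for the members and 0.10 for all genes.

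**Figure D1:**
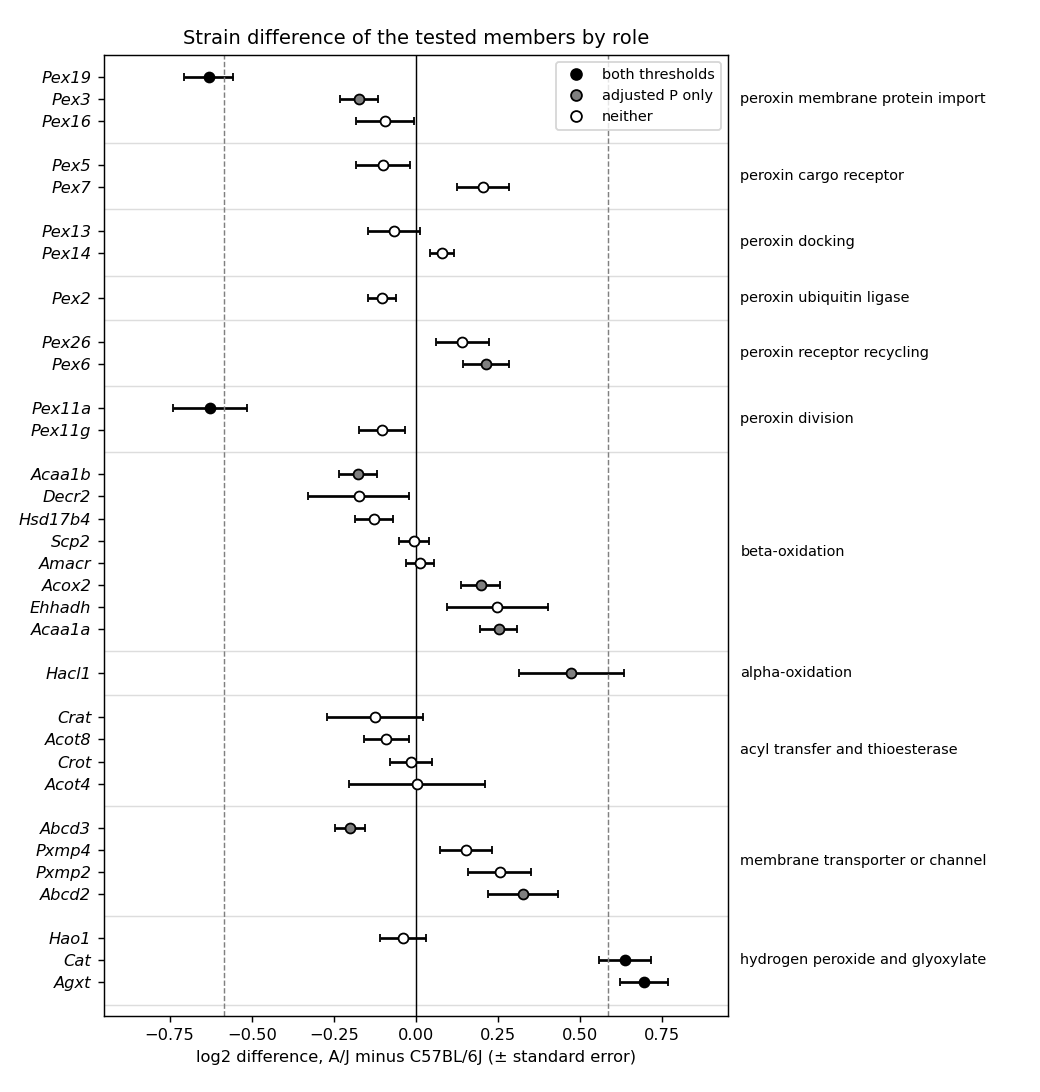
Log2 difference, A/J minus C57BL/6J, of the 32 members tested, ordered by role, with standard errors as bars and the 1.5-fold threshold as dashed lines. Filled points passed both thresholds (*Pex19*, *Pex11a*, *Cat* and *Agxt*), grey points the adjusted *P* only and open points neither.

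*Agxt* encodes alanine-glyoxylate aminotransferase, which turns glyoxylate into glycine and is deficient in human primary hyperoxaluria. The gene lies on chromosome 1, from 93135240 to 93145421 in GRCm38.p6. Its log2 signal was lowest at 13.10, with a median of 13.17 and a maximum of 13.44, in the A/J samples, and 12.24, 12.55 and 12.77 in the C57BL/6J samples. Every A/J sample was above every C57BL/6J sample. The means were 13.22 ± 0.125 in A/J and 12.53 ± 0.176 in C57BL/6J mice (SD, n = 8 each), which is 0.69 higher in A/J on the log2 scale (standard error 0.0733, 1.62-fold, adjusted *P* = 1.08e-06 in limma). It was the largest difference among the brightest probes of the members.

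*Cat* encodes catalase, the enzyme that splits hydrogen peroxide in the peroxisome (chromosome 2, 103453904 to 103485153 in GRCm38.p6). Lowest, median and highest log2 signals were 14.23, 14.28 and 14.58 in A/J mice and 13.47, 13.66 and 14.00 in C57BL/6J mice. Again the strains did not overlap, and the A/J samples lay close to the top of the array's range. Mean signals were 14.32 ± 0.119 in A/J and 13.69 ± 0.201 in C57BL/6J mice (SD, n = 8 each), and they differed by 0.64 (standard error 0.0785, 1.55-fold, adjusted *P* = 7.18e-06 in limma).

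Within A/J mice, *Cat* signals of samples 1 to 4 (14.23 to 14.43) and 5 to 8 (14.26 to 14.58) overlapped. Within C57BL/6J mice they did not, at 13.47 to 13.57 in samples 1 to 4 and at 13.76 to 14.00 in samples 5 to 8. The strain difference was accordingly 0.78 (adjusted *P* = 1.2e-05 in limma) within samples 1 to 4 and 0.49 (adjusted *P* = 0.00335) within samples 5 to 8, below 1.5-fold in the later numbers. Catalase is also abundant in red blood cells, and their markers were examined beside it. The mean log2 signal of 4 red blood cell markers was 11.32 to 11.80 in A/J samples and 10.69 to 10.94 in C57BL/6J samples, and the 1 marker of the list that was called was *Hbb-b2*, a beta globin gene, higher in A/J by 2.29. Globin genes have near-identical copies, so this value is uncertain. Of the other 3, *Slc4a1*, the anion exchanger of the red cell membrane, differed by 0.34 (adjusted *P* = 0.00179 in limma), below 1.5-fold, *Hba-a1*, an alpha globin gene, by 0.07 and *Alas2*, an enzyme of haem synthesis in red cell precursors, by -0.12 (adjusted *P* = 0.552). The separation of the list's means therefore rests mainly on *Hbb-b2*, and the part of red blood cells in the *Cat* difference was not tested.

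*Hao1*, glycolate oxidase, produces glyoxylate and hydrogen peroxide and so feeds the reactions of *Agxt* and *Cat*. Its signal was 13.70 ± 0.109 in A/J and 13.74 ± 0.172 in C57BL/6J mice (SD, n = 8 each), a difference of -0.04 (standard error 0.0694, adjusted *P* = 0.737 in limma). Of the 3 members of this group, 2 were thus called higher, and the third had a difference smaller than its standard error.

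**Figure D2:**
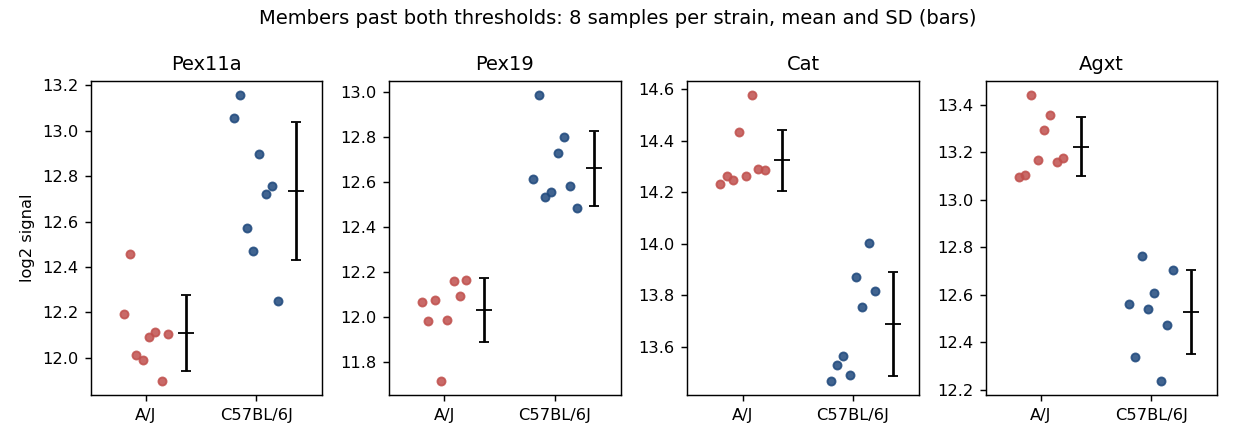
Log2 signal of the 4 differentially expressed members in each of the 8 A/J (red, left) and 8 C57BL/6J (blue, right) samples, with mean and SD as bars; each panel has its own vertical axis. Only the *Pex11a* samples of the strains overlap.

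*Pex19* encodes the cytosolic chaperone that binds newly made peroxisomal membrane proteins and hands them to PEX3. It lies on chromosome 1, from 172126755 to 172136497 in GRCm38.p6, and is the only member inside an interval that the study mapped for hepatic *Xbp1s* expression. The study's own array comparison already listed *Pex19* as differentially expressed between these strains, and it counted sequence differences between them for this gene. The brighter of the probes shown above gave 11.72, 12.07 and 12.16 (lowest, median and highest log2 signal) in A/J mice and 12.49, 12.60 and 12.99 in C57BL/6J mice. No A/J sample reached the lowest C57BL/6J sample. Means were 12.03 ± 0.143 in A/J and 12.66 ± 0.168 in C57BL/6J mice (SD, n = 8 each), and they differed by -0.63 (standard error 0.0746, 1.55-fold, adjusted *P* = 4.32e-06 in limma).

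The dimmer probe of *Pex19* gave 8.54, 9.03 and 9.55 in A/J mice and 9.68, 10.12 and 10.76 in C57BL/6J mice. Its strains did not overlap either, and its difference of -1.09 was larger (standard error 0.17, 2.12-fold, adjusted *P* = 0.000103 in limma). The probes share a run of at most 6 bases, so 2 separate stretches gave a lower signal in A/J mice. For the brighter probe the difference was -0.71 within samples 1 to 4 and -0.55 within samples 5 to 8, below 1.5-fold in the later numbers. Without C57BL/6J sample 2, the highest of its strain, the difference of the brighter probe was -0.58, just short of 1.5-fold (adjusted *P* = 3.94e-06).

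The other genes of membrane protein import differed less. *Pex3*, the membrane anchor that receives PEX19, had signals of 10.24, 10.52 and 10.62 in A/J mice and 10.53, 10.66 and 10.82 in C57BL/6J mice. These ranges overlap, and the difference of -0.17 (standard error 0.0578) passed the adjusted *P* (0.034 in limma) but not the fold threshold. Its other probe ran the other way, by 0.05 (adjusted *P* = 0.605), so the probes of *Pex3* disagreed. *Pex16*, a membrane protein that acts with PEX3, differed by -0.09 (standard error 0.0873, adjusted *P* = 0.493).

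*Pex11a* encodes the PPARα-responsive peroxin that elongates the membrane before the organelle divides (chromosome 7, 79735957 to 79743131 in GRCm38.p6). Its brightest probe gave 11.90, 12.10 and 12.46 in A/J mice and 12.25, 12.74 and 13.16 in C57BL/6J mice. The ranges overlap because A/J sample 2, at 12.46, was above C57BL/6J sample 8, at 12.25. The means were 12.11 ± 0.167 in A/J and 12.73 ± 0.302 in C57BL/6J mice (SD, n = 8 each), and they differed by -0.63 (standard error 0.113, 1.54-fold, adjusted *P* = 0.000398 in limma).

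The 2 other *Pex11a* probes were lower in A/J mice as well. The next brightest gave 11.30, 11.38 and 11.77 in A/J mice and 11.89, 12.32 and 12.54 in C57BL/6J mice, with no overlap, and differed by -0.82 (standard error 0.0996, 1.76-fold, adjusted *P* = 6.42e-06). The dimmest averaged 9.14 ± 0.221 in A/J and 9.88 ± 0.339 in C57BL/6J mice (SD, n = 8 each) and differed by -0.74 (standard error 0.132, 1.67-fold, adjusted *P* = 0.000358). All 3 probes passed both thresholds, and all 3 read separate sequences.

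The brightest *Pex11a* probe was near the fold threshold. Its difference was -0.58 without C57BL/6J sample 1 and -0.57 without C57BL/6J sample 2, which are the highest samples of that strain. It was also -0.57 (adjusted *P* = 0.00568) without A/J samples 4 and 7 and C57BL/6J sample 7, in which exocrine pancreas markers were high, while the other probes then differed by -0.76 and -0.62. *Pex11g*, the other division peroxin measured, differed by -0.10 (standard error 0.0691, adjusted *P* = 0.309). One PEX11 gene was therefore called and the other was not, and the difference between them was not tested.

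The remaining peroxins were not called. *Pex5* and *Pex7*, receptors for the targeting signals of matrix enzymes, differed by -0.10 and 0.20 (adjusted *P* = 0.425 and 0.0718), and the docking genes *Pex13* and *Pex14* by -0.07 and 0.08 (adjusted *P* = 0.603 and 0.135). In the export machinery, *Pex6*, an ATPase that pulls the receptors back out, was 12.31, 12.47 and 12.63 in A/J mice and 12.02, 12.27 and 12.51 in C57BL/6J mice. This difference of 0.21 (standard error 0.0696, adjusted *P* = 0.0294) was below 1.5-fold, and the other *Pex6* probes differed by 0.02 and 0.07 without passing. *Pex26*, its membrane anchor, differed by 0.14 (adjusted *P* = 0.228) and *Pex2*, a subunit of the ubiquitin ligase, by -0.10 (adjusted *P* = 0.0917). *Pex10*, the partner of *Pex2*, was not tested because its mean signals, 7.86 in A/J and 7.82 in C57BL/6J mice, were among the dimmer probes.

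**Figure D3:**
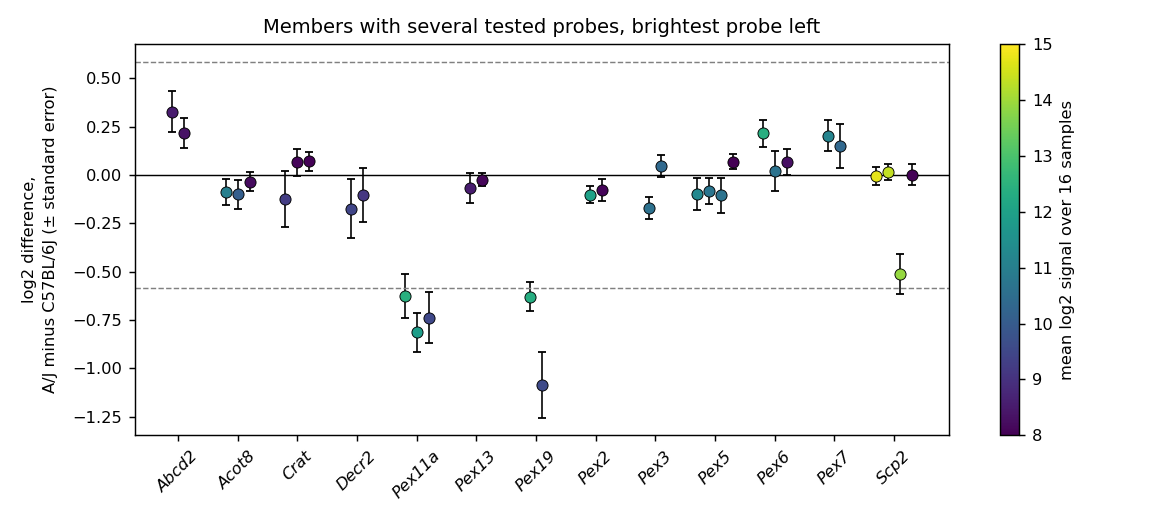
Log2 difference, A/J minus C57BL/6J, with standard errors for each tested probe of the 13 members with several, brightest probe left, coloured by mean log2 signal; dashed lines mark 1.5-fold. All probes of *Pex11a* and *Pex19* lie below the lower dashed line, while 1 of the 4 *Scp2* probes stands apart from the others.

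Within beta-oxidation no member was called, and 3 of 8 passed the adjusted *P* alone. *Acaa1a* and *Acaa1b* encode thiolases for the last step of the cycle, and their differences had opposite signs. *Acaa1a* gave 14.13, 14.32 and 14.58 in A/J mice and 13.98, 14.07 and 14.12 in C57BL/6J mice, and differed by 0.25 (standard error 0.0551, 1.19-fold, adjusted *P* = 0.00216 in limma). *Acaa1b* gave 14.27, 14.45 and 14.69 in A/J mice and 14.50, 14.66 and 14.71 in C57BL/6J mice, and differed by -0.18 (standard error 0.0576, 1.13-fold, adjusted *P* = 0.0298). For *Acaa1a* every A/J sample was above every C57BL/6J sample, and for *Acaa1b*, whose probe is near the top of the range, 4 A/J samples were below every C57BL/6J sample.

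*Acox2*, the oxidase for branched chains and bile acid intermediates, was 12.91, 13.05 and 13.10 in A/J mice and 12.68, 12.77 and 13.07 in C57BL/6J mice. The difference of 0.20 (standard error 0.0592, adjusted *P* = 0.0191) was below 1.5-fold, and 3 C57BL/6J samples reached into the A/J range. The bifunctional enzymes of the middle steps did not pass, with *Hsd17b4* at -0.13 (standard error 0.058, adjusted *P* = 0.12) and *Ehhadh* at 0.25 (standard error 0.154, adjusted *P* = 0.274). *Ehhadh* had the wider spread, with A/J samples from 10.74 to 11.97 and C57BL/6J samples from 10.45 to 11.48. *Amacr*, a racemase for branched chains, and *Decr2*, a reductase for unsaturated chains, differed by 0.01 and -0.17 (adjusted *P* = 0.881 and 0.467).

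*Scp2* makes a thiolase for branched chains (SCPx) and, from an internal promoter, the shorter sterol carrier protein 2. It lies on chromosome 4, from 108043830 to 108144971 in GRCm38.p6. Its brightest probe did not differ beyond its error, at 14.72 ± 0.0954 in A/J and 14.73 ± 0.0753 in C57BL/6J mice (SD, n = 8 each; difference -0.01, standard error 0.0458, adjusted *P* = 0.952 in limma), nor did the probe that overlaps it (0.02, standard error 0.042, adjusted *P* = 0.832). The separate probe shown above gave 13.36, 13.60 and 13.98 in A/J mice and 13.73, 14.21 and 14.42 in C57BL/6J mice. It was lower in 6 of the A/J samples than in any C57BL/6J sample, and differed by -0.51 (standard error 0.104, 1.43-fold, adjusted *P* = 0.00118), below 1.5-fold. The probes of this gene therefore disagreed, and which of its transcripts each one reads was not determined here. Over all samples the brightest and overlapping probes averaged 14.72 and 14.36 and the separate probe 13.89. The first 2 lie close to the array's top of 14.97, which leaves them less room for a difference. The difference between the probes was not tested, and the remaining, dim probe differed by 0.00.

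*Hacl1*, a lyase of alpha-oxidation, was 9.93, 10.56 and 11.16 in A/J mice and 9.65, 10.05 and 10.45 in C57BL/6J mice. At 0.47 (standard error 0.161, 1.39-fold, adjusted *P* = 0.0375) it had the largest difference among the members that passed the adjusted *P* only. The strains overlapped. *Phyh*, the hydroxylase of the same route, was not tested because its probe, with means of 7.84 in A/J and 7.80 in C57BL/6J mice, was too dim to be kept.

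No acyl transfer or thioesterase gene passed the adjusted *P*. *Crot* and *Crat*, which put shortened chains on carnitine for the mitochondria, differed by -0.02 and -0.12 (adjusted *P* = 0.903 and 0.6), and the thioesterases *Acot8* and *Acot4* by -0.09 and 0.00 (adjusted *P* = 0.378 and 0.993). *Acot4* had the largest standard error of the members, 0.207, with samples from 9.78 to 10.75 in A/J and from 9.38 to 10.78 in C57BL/6J mice.

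Among transporters and channels, *Abcd3* and *Abcd2* passed the adjusted *P* with opposite signs. *Abcd3*, an abundant membrane transporter that imports branched acyl-CoA, was 13.76, 13.83 and 13.95 in A/J mice and 13.89, 14.06 and 14.18 in C57BL/6J mice (difference -0.20, standard error 0.0451, 1.15-fold, adjusted *P* = 0.00258 in limma). *Abcd2*, which imports very-long-chain acyl-CoA, was 8.43, 8.69 and 8.98 in A/J mice and 8.15, 8.29 and 8.89 in C57BL/6J mice (difference 0.33, standard error 0.106, 1.25-fold, adjusted *P* = 0.0288). Its other probe differed by 0.22 (adjusted *P* = 0.0506). *Pxmp2*, a channel for small solutes, differed by 0.25 (standard error 0.0951, adjusted *P* = 0.0574) and the membrane protein gene *Pxmp4* by 0.15 (standard error 0.0804, adjusted *P* = 0.186).

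**Figure D4:**
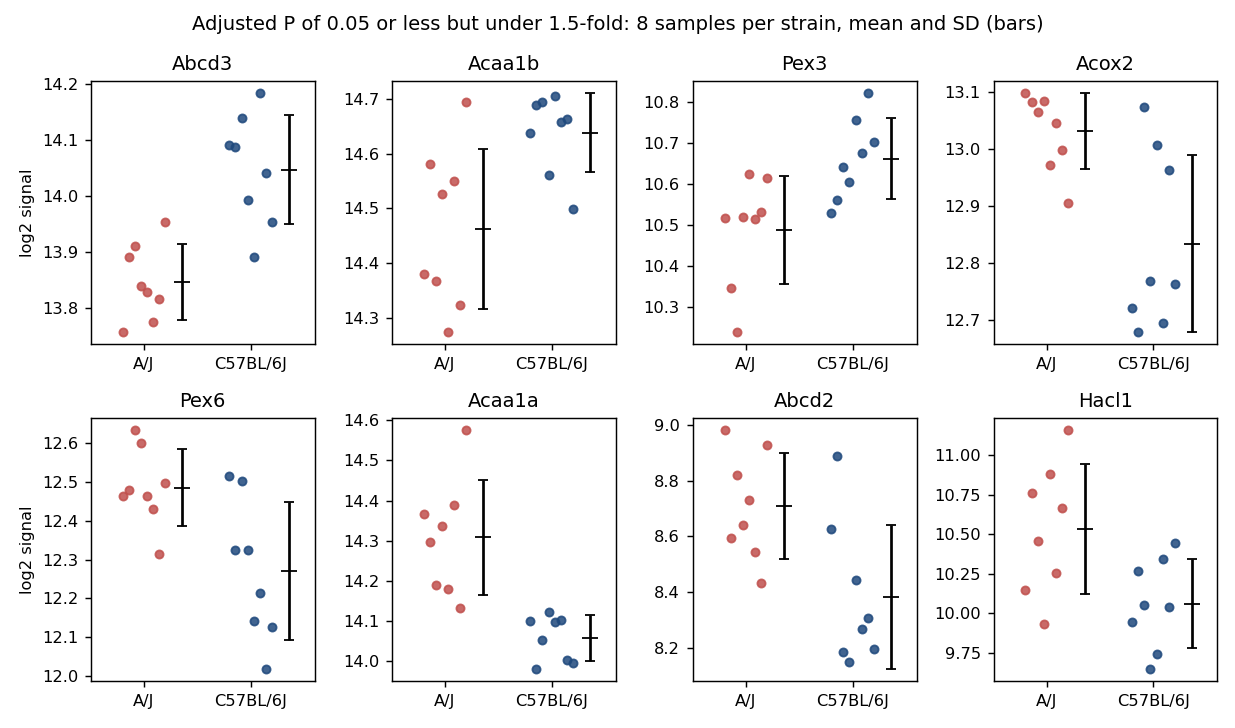
Log2 signal of the 8 members with an adjusted *P* of 0.05 or less and less than 1.5-fold, in each A/J (red, left) and C57BL/6J (blue, right) sample, with mean and SD as bars and a separate vertical axis per panel. Among them only *Acaa1a* has strains that do not overlap.

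Peroxins and metabolic members were set side by side. Of 12 peroxins tested, 2 were called and both were lower in A/J mice (3.16% of all genes were), with 8 negative and 4 positive differences and a median of -0.10. Of 20 metabolic members tested, 2 were called and both were higher (2.13% of all genes were), with 9 negative and 11 positive differences and a median of 0.01. In each sample the mean log2 signal of the peroxins was 11.07 to 11.17 in A/J and 11.09 to 11.31 in C57BL/6J mice, and that of the metabolic members was 11.65 to 11.89 in A/J and 11.50 to 11.69 in C57BL/6J mice. Both ranges overlap, and the difference between the classes was not tested. The strain differences of the 4 genes named as PPARα-induced above had no common direction. They were -0.63 for *Pex11a*, -0.18 for *Acaa1b*, 0.25 for *Ehhadh* and 0.00 for *Acot4*. Whether these genes varied together between the samples of a strain was not tested.

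**Figure D5:**
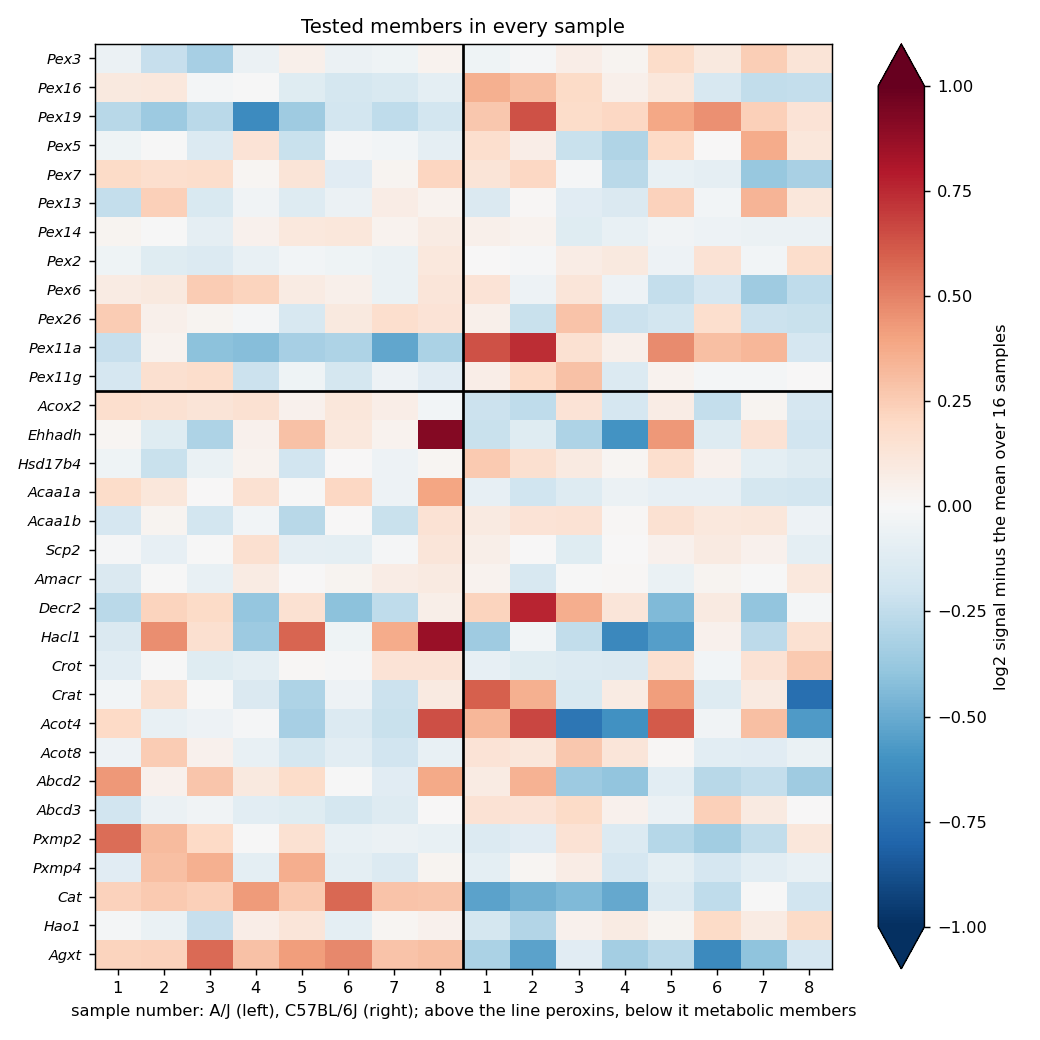
Log2 signal minus the mean over 16 samples for the 32 members tested, with A/J samples 1 to 8 left and C57BL/6J samples 1 to 8 right; peroxins are above the horizontal line and metabolic members below it. *Pex19* and *Pex11a* are mostly blue and *Cat* and *Agxt* red in A/J samples, and A/J sample 8 is red for *Ehhadh* and *Hacl1*.

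Samples of 1 strain also differed among themselves. The median SD of the members was 0.128 in A/J and 0.174 in C57BL/6J mice, and 20 of 32 members had the larger SD in C57BL/6J mice (62.5%, against 61.8% of all genes). Samples 1 to 4 and 5 to 8 did not overlap for 2 of 32 members in A/J mice (6.25%, against 10.7% of all genes), which were *Pex16* and *Acox2*. In C57BL/6J mice this held for 6 of 32 members (18.8%, against 18.2% of all genes), which were *Pex3*, *Pex6*, *Decr2*, *Crot*, *Acot8* and *Cat*. These shares are near the background. A/J sample 8, picked out after its values were seen, had the highest A/J signal for *Ehhadh* (11.97), *Hacl1* (11.16), *Acot4* (10.75), *Acaa1a* (14.58) and *Acaa1b* (14.69). The same held for *Amacr* (8.16) and *Abcd3* (13.95) and for the peroxins *Pex19* (12.16), *Pex2* (12.08) and *Pex7* (11.36). How often this sample was the highest over all genes was not counted, so no trait of these members is read from it.

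The labelled tissue was checked with marker genes. The mean log2 signal of 15 hepatocyte markers was 13.51 to 13.72 in A/J and 13.48 to 13.75 in C57BL/6J samples, with no marker called. Exocrine pancreas markers stood apart in 3 samples, where the mean of 23 of them was 10.31 (A/J sample 4), 10.14 (A/J sample 7) and 11.85 (C57BL/6J sample 7), while the remaining 13 lay between 8.03 and 8.60. Without these 3 samples *Agxt*, *Cat* and *Pex19* differed by 0.71, 0.67 and -0.60, all still past both thresholds. Of the same 23 markers *Cela1*, an elastase, was the only one called, at 1.25. The mean of 2 bile duct markers, both near the array median, was 7.91 to 8.05 in A/J and 8.14 to 8.27 in C57BL/6J samples. This rests on *Sox9*, which differed by -0.40 (adjusted *P* = 3.7e-05 in limma), below 1.5-fold, while the keratin *Krt7* differed by -0.02 (adjusted *P* = 0.859). The A/J mean of *Sox9*, 7.92, lies below the lowest mean kept, 7.997, so its probe passed the filter through its C57BL/6J values. The ranges of the mean over Kupffer cell, endothelial, stellate and lymphocyte markers overlapped, but single markers were called. Of 8 endothelial markers these were the scavenger receptor *Stab2*, higher in A/J mice by 0.94, and the hyaluronan receptor *Lyve1*, lower by 0.84, and of 7 Kupffer cell markers the complement gene *C1qb*, lower by 0.60. The part of these cell types in the members' differences was not tested. None of 5 adipocyte markers on the array was bright enough to be tested. Fewer cells of a type and less RNA per cell cannot be told apart in whole liver.

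Of 54 further peroxisomal genes listed for comparison, 36 were tested and 3 were called, or 8.33%, against 5.29% of all genes. *Dhrs7b*, a reductase of ether lipid synthesis, was lower in A/J mice at 10.43 ± 0.107 than in C57BL/6J mice at 11.73 ± 0.207 (SD, n = 8 each), and its difference of -1.30 exceeded that of any member (standard error 0.0783, 2.46-fold, adjusted *P* = 6.35e-10 in limma). *Hao2*, a hydroxy acid oxidase, was higher at 8.20, 8.36 and 9.84 in A/J mice, against 7.73, 7.87 and 8.09 in C57BL/6J mice (0.67, standard error 0.183, adjusted *P* = 0.0113). Its C57BL/6J mean of 7.90 lies below the lowest mean kept, 7.997, so the probe passed the filter through its A/J values. The size of its difference is therefore uncertain. Without A/J sample 8, the sample at 9.84, it differed by 0.48 (adjusted *P* = 0.000415) and was no longer called. *Acot12*, higher by 0.62 (adjusted *P* = 6.2e-07), is a thioesterase best known from the cytosol. Without the fold threshold 12 passed, 5 higher and 7 lower in A/J mice, and the median difference was 0.01.

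Because PPARα induces several members, 30 genes outside the members, the receptor and others of its response, were also examined, and 22 of them were tested. *Ppara* itself was 9.04, 9.33 and 9.57 in A/J mice and 8.62, 8.81 and 9.17 in C57BL/6J mice, and it differed by 0.48 (standard error 0.0918, 1.40-fold, adjusted *P* = 0.000638 in limma) and so below 1.5-fold. Of the list 4 were called (18.2%, against 5.29% of all genes). *Plin2*, which coats lipid droplets, was lower in A/J mice by 1.17, *Fgf21*, a fasting hormone, was lower by 0.85 and *Ppargc1a*, a coactivator, was higher by 0.77. *Cidec*, another lipid droplet gene, was also lower, at 7.82 to 7.96 in A/J mice against 8.65 to 11.25 in C57BL/6J mice, and since all its A/J values lie below the array median of 8.01 the size of that difference is uncertain. Its A/J mean of 7.89 lies below the lowest mean kept, 7.997, so the probe passed the filter through its C57BL/6J values. The share of the list called thus includes a gene that was tested only through its signal in C57BL/6J mice. *Cyp4a14*, an omega-hydroxylase, differed by 1.05 without passing (standard error 0.424, adjusted *P* = 0.0779), and its C57BL/6J samples reached from 10.66 to 14.27. With the sample number as a block its adjusted *P* was 0.0465. Like the members, the list had no common direction, with 8 positive and 14 negative differences and a median of -0.08.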

How the data were processed

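Illumina Mouse Ref 8 bead arrays were scanned by the authors in BeadStudio, and lumi was used for quantile normalization; the tools' versions, and whether the deposited log2 values are plain or variance-stabilized, were not given in the sources used here. Sorted arrays differed by at most 0.00086. Detection *P* values were not used here, so in place of the authors' filter the 13060 of 25697 probes of highest mean (lowest mean 7.997) were kept, the number their methods keep. Gene symbols came from the platform annotation, updated through RefSeq (GRCm38.p6), with 23978 probes naming 1 gene and 1719 none. Probe sequences were decoded from the array's identifiers, with a matching check digit for all 25697.

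Strains were compared with limma 3.58.1 (lmFit and eBayes, R 4.3.3) on all 16 samples, subtracting C57BL/6J from A/J, and *P* was adjusted by Benjamini-Hochberg across every kept probe. A gene was called with adjusted *P* of at most 0.05 and 1.5-fold or more, where fold is 2 to the power of the difference. The kept probe of highest mean stood for its gene. The code of the fit was tested on simulated data with independent normal values for each probe. These lack the structure between samples described above and the pooling, so they do not bear on whether the calls hold. Tables and plots used Python 3.11.15, pandas 2.3.3, numpy 2.4.6 and matplotlib 3.10.9.

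The members, the gene lists and the tests were chosen with earlier results of these data known. Named in full were members with a called probe; others were named for an adjusted *P* of 0.05 or less, probes that disagree or the largest standard error, and, of the further peroxisomal genes and the PPARα list, those called, with *Ppara* whatever its result. *Cyp4a14* and the markers of other cell types were named after their values were seen. The number of arrays limits the precision. Alternatives were other filters, normalizations, variance models, weights, probes per gene, scales and fold thresholds, the sample number as a block, groups of sample numbers, leaving out samples, and counting a member where any probe was called, which was chosen after seeing the data.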

Additional observations from a re-analysis of the deposited data

Results flagged for a closer look

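Each strain's 8 values of the 53 tested probes of the members were searched for a sample far from the rest, in 106 groups of values. In 4 of them the gap of 1 sample to its nearest neighbour was large for the range of its group, where chance alone marks about 1 in 20 groups. *Pex19* in A/J sample 4, one of the samples with high exocrine pancreas markers, was 11.72 on the brighter probe, and the next A/J sample was 11.99. *Pex2* in A/J sample 8 was 12.08, against 11.95 in the next sample. For *Crat*, A/J sample 2 was 8.49 on a dimmer probe, with the next at 8.17, and C57BL/6J sample 7 was 7.88 on the dimmest probe, with the next at 7.99. Leaving out A/J sample 4 kept *Pex19* called.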

How the results depend on the processing

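Over 32 alternatives the 32 members gave 1020 comparisons with the reported call, of which 1002 kept it, 10 lost it and 8, all from dropping the fold threshold, gained it. No called direction changed, and 9 members that were called in neither fit changed sign in 27 comparisons, with absolute differences of at most 0.10. At 2-fold, 172 genes, 242 probes, 0 members (0 peroxins, 0 metabolic), 1 member probe, 1 further peroxisomal gene and 2 of the PPARα list were called; with no fold threshold, 2542 genes, 3459 probes, 12 members (4 peroxins, 8 metabolic), 16 member probes and 12 genes of each list passed. Within samples 5 to 8 alone, 2 members (1 peroxin, 1 metabolic) and 1 further peroxisomal gene were called, *Pex19* being -0.55 and *Cat* 0.49. Without A/J samples 4 and 7 and C57BL/6J sample 7, 1 peroxin was called. The last 2 settings hold fewer samples, and the causes were not tested.

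Leaving out each sample gave 468 to 491 genes, 616 to 651 probes, 2 to 4 members, 0 to 2 peroxins, 2 metabolic members, 5 to 7 member probes, 2 to 3 further peroxisomal genes and 4 to 5 of the PPARα list. The lowest counts for peroxins came without C57BL/6J sample 2, where *Pex11a* was -0.57 and *Pex19* -0.58, and without sample 1 *Pex11a* was -0.58. The sample numbers were not taken as pairs, since the labels do not name them as such. With each strain's mean removed, same-numbered samples correlated at -0.01 to 0.54, most of them above 0. Samples of different numbers were not compared in this way, so these values do not settle whether the numbers mark a shared structure. With the sample number as a replicate block, 4 members, 2 peroxins, 2 metabolic members and 3 further peroxisomal genes were called, as without it, and 5 of the PPARα list in place of 4, *Cyp4a14* being added (adjusted *P* = 0.0465 in limma).

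Every difference called among the members lay between 1.54-fold and 1.62-fold on the brightest probe, and each call lost by leaving out 1 sample kept an adjusted *P* of at most 0.000897 in limma. Probes near the array median of 8.01 and near its top of 14.97 leave little room for a difference, and 1 array per sample and the pooled RNA do not show the spread between mice.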
